A study of Homo sapiens with 3 samples.

Results

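The cells described here were the droplets of the Mix1 library that held little RNA: cells with at least 200 detected genes, less than 10% of UMIs from mitochondrially encoded genes, and fewer than 5000 UMIs (unique molecular identifiers, 1 per captured RNA molecule). They numbered 4963 of the 15630 Mix1 cells that met both quality limits (31.8%) and of the 27282 such cells in both libraries of the series, and carried 8.62% of the UMIs of those cells. They are called low-UMI cells below, and were set against 5751 mid-UMI cells of the same library, with 8000 to under 15000 UMIs. The cells were chosen by their measured UMIs, detected genes and mitochondrial share, and the comparison was chosen with the levels of CST3, SNCG and CDKN1A known, so these values are a description and no test was made with them.

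HCT116 is a human colorectal cancer cell line, used here with functional p53 (genotype p53plus). The study irradiated it and followed RTP cells, giant poly-aneuploid cells that form after irradiation and shed small daughter cells. Mix1 was 1 library pooled from giant cells that had received 8 Gy, were isolated on day 5 or day 8 and were then grown until day 10 or day 11. The 4 combinations of days were mixed before loading and cannot be separated in the matrix. Mix2 was a second library, prepared with antibody tags: tag8 on irradiated cells treated like Mix1, tag7 on repopulated cells and tag6 on non-irradiated cells, which had received 0 Gy. With 1 library for each, cells were not replicates and no test between conditions was possible. Each interval given is an exact 95% interval and describes the error of counting molecules alone. Fewer cells of a kind cannot be told apart from less RNA per cell in a summed level.

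Irradiation stabilises p53, which turns on CDKN1A, the inhibitor of cyclin-dependent kinases that holds damaged cells out of the cycle. CST3 encodes cystatin C, a secreted inhibitor of cysteine proteases, and SNCG encodes gamma-synuclein, a small cytoplasmic protein. In droplet sequencing, a barcode with few UMIs can come from a small cell, from a cell that lost part of its content, or from RNA that was free in the suspension. A damaged cell usually keeps nuclear and mitochondrial RNA longer than cytoplasmic RNA, and a cell at rest lacks the transcripts of S phase and mitosis. On GRCh38, CST3 lies at chr20:23626706-23638473 on the minus strand, SNCG at chr10:86958599-86963258 on the plus strand and CDKN1A at chr6:36676460-36687337 on the plus strand. All 3 are protein-coding genes.

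The Mix1 matrix held 17019 barcodes and 159242469 UMIs, against an estimated 10000 cells loaded, and its smallest barcode had 1051 UMIs. The Mix2 matrix held 13888 barcodes, its smallest with 500 UMIs, and 59 barcode sequences occurred in both libraries. Low-UMI cells had a median of 2551 UMIs and 1160 genes, and mid-UMI cells a median of 10813 UMIs and 3045 genes. EPCAM and CDH1, adhesion proteins of epithelial cells, stood at 289 and 19.8 CPM (the gene's part of all UMIs summed over the cells of a set, where 10000 CPM is 1%) in low-UMI cells, against 309 and 19.7 CPM in mid-UMI cells. Defining genes of fibroblast, immune, endothelial and erythroid lineages (5 each) summed to 3.16, 7.31, 0.231 and 0.770 CPM in low-UMI cells, against 2.90, 5.99, 0.142 and 1.04 CPM in mid-UMI cells and no gene of these lists reached 10 CPM. COL1A1, a fibroblast collagen, stood at 2.69 CPM in low-UMI cells and 2.74 CPM in mid-UMI cells. PTPRC, the common leukocyte antigen, gave 1 UMI in each set, CD3E, MS4A1, VWF and ALAS2 gave none in either, CDH5 and KDR none in low-UMI cells, and LUM, CLDN5 and HBB none in mid-UMI cells.

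The total UMIs of Mix1 cells had 2 peaks. A sharp one lay between 2000 and 3000 UMIs and held 2346 cells, 47.3% of the low-UMI cells. A broad one had its top near 10000 UMIs. The limit of 5000 UMIs fell in the trough between them. Cells just inside that limit, with 4500 to under 5000 UMIs, had 687 CPM of CST3, 152 CPM of SNCG and 643 CPM of CDKN1A (288 cells). Cells just outside, with 5000 to under 5500 UMIs, had 572, 158 and 641 CPM of the same genes (297 cells).

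**Figure D1:**
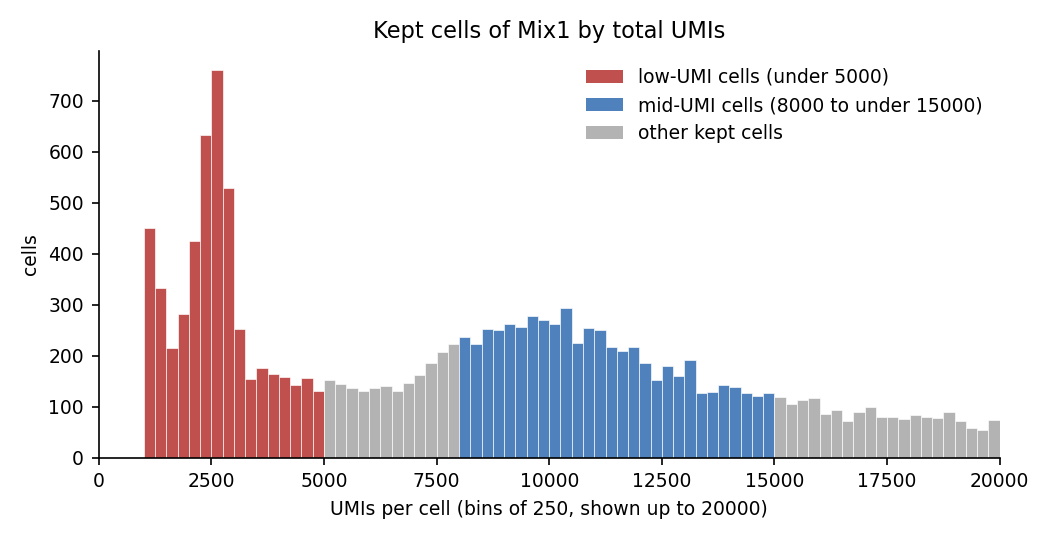
Number of kept Mix1 cells (vertical axis) by total UMIs (horizontal axis, bins of 250 UMIs up to 20000); red bars are low-UMI cells, blue bars mid-UMI cells and grey bars the other kept cells. The 2346 cells between 2000 and 3000 UMIs form a peak of their own, separate from the broad peak near 10000 UMIs.

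CST3 stood at 893 CPM in low-UMI cells and 445 CPM in mid-UMI cells, a ratio of 2.01 (interval 1.97 to 2.05). CDKN1A stood at 824 CPM in low-UMI cells and 451 CPM in mid-UMI cells, a ratio of 1.83 (1.79 to 1.87). SNCG differed less, with 171 CPM in low-UMI cells and 135 CPM in mid-UMI cells and a ratio of 1.26 (1.21 to 1.32). GDF15, a secreted stress factor and p53 target, stood at 1229 CPM in low-UMI cells and 678 CPM in mid-UMI cells. Per cell the order was reversed, because low-UMI cells held fewer molecules of everything: CST3 averaged 2.34 UMIs in a low-UMI cell and 4.91 UMIs in a mid-UMI cell, and CDKN1A 2.16 and 4.98 UMIs. At least 1 CST3 UMI was found in 85.6% of low-UMI cells (84.6 to 86.6, exact Clopper-Pearson) and in 94.9% of mid-UMI cells (94.3 to 95.5). With every cell thinned to 1000 UMIs, the shares were 59.7% in low-UMI cells (58.4 to 61.1) and 33.4% in mid-UMI cells (32.2 to 34.7). The same thinning gave CDKN1A in 54.6% and 29.4% of cells, SNCG in 16.2% and 12.6%, and GDF15 in 69.1% and 39.0%, low-UMI cells first. The library held no cell type that should lack these genes, so no background share was available within it.

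These levels did not fall evenly as UMIs grew. CST3 lay between 869 and 987 CPM in each bin below 4000 UMIs, at 681 and 687 CPM in the bins from 4000 to under 5000 UMIs, at 426 CPM in cells of 7000 to under 8000 UMIs, and at 675 CPM in cells of 30000 UMIs or more. CDKN1A was lowest in cells of 8000 to under 10000 UMIs, at 365 CPM, and highest in those of 30000 or more, at 976 CPM. The low-UMI cells therefore resembled the largest cells in CDKN1A and SNCG: against cells of at least 15000 UMIs, the ratios were 1.02 for CDKN1A (0.9998 to 1.04) and 1.01 for SNCG (0.963 to 1.06), while CST3 had a ratio of 1.53 (1.4999 to 1.56). KRT8, an epithelial keratin, was not higher again in large cells. It stood at 2046 CPM in cells of 1000 to under 1500 UMIs and between 1103 and 1284 CPM in all bins from 6000 UMIs upward.

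**Figure D2:**
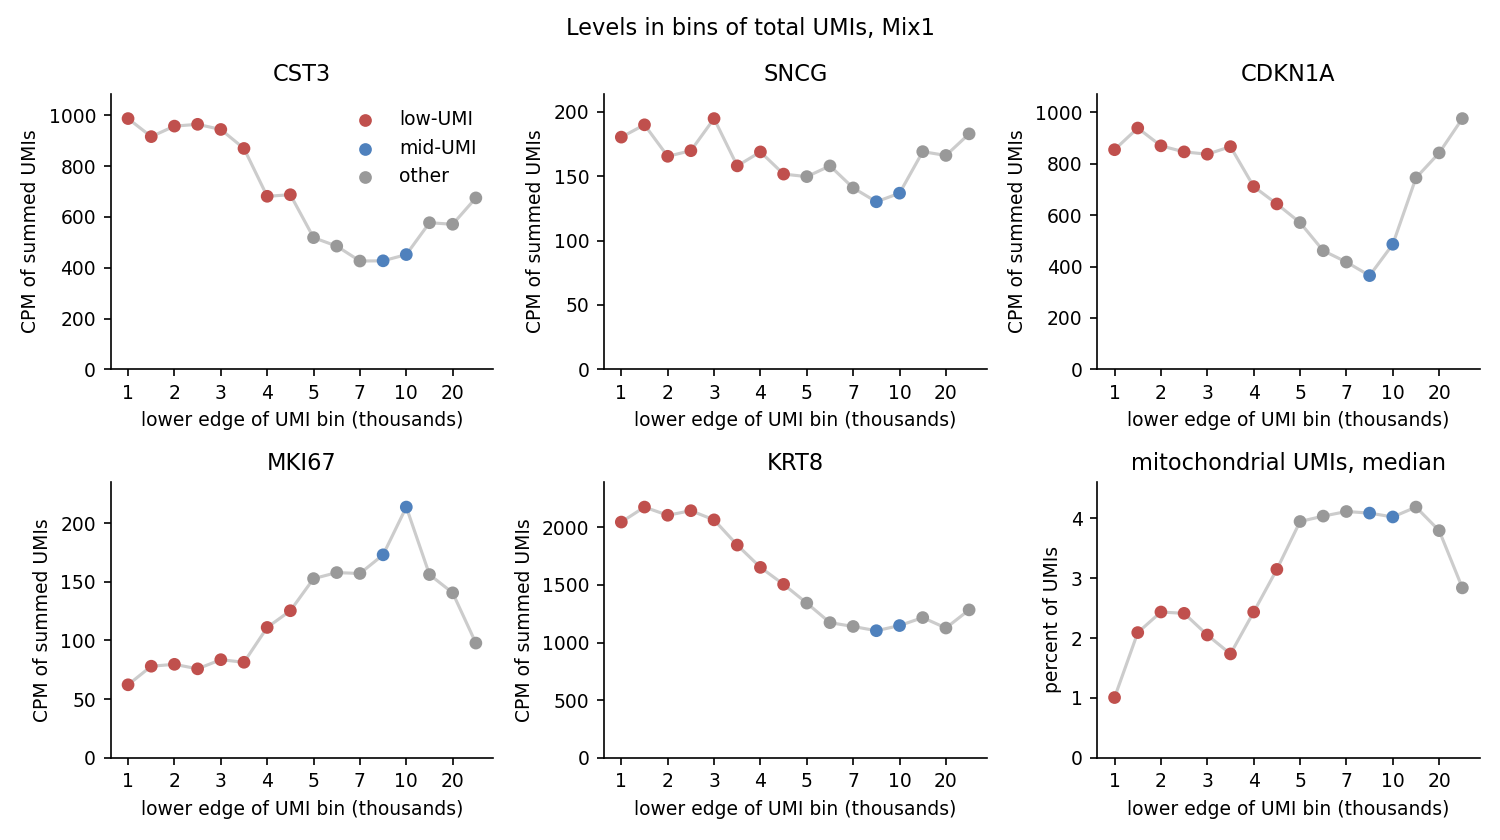
CPM of summed UMIs for CST3, SNCG, CDKN1A, MKI67 and KRT8, and the median percent of mitochondrial UMIs per cell, in 16 bins of total UMIs of Mix1 (horizontal axis, lower edge in units of 1000 UMIs, bins not of equal width). CST3, SNCG and CDKN1A are high at both ends, with CDKN1A at 365 CPM in the bin from 8000 UMIs, whereas KRT8 stays between 1103 and 1284 CPM from 6000 UMIs upward.

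Mitochondrial RNA took a smaller part of the UMIs in the kept low-UMI cells, a value that the limit of 10% helped to set. Mitochondrially encoded genes gave 2.49% of summed UMIs in low-UMI cells (2.48 to 2.50) and 4.31% in mid-UMI cells (4.30 to 4.31). The median cell had 2.24% among low-UMI cells (quartiles 0.975 and 2.89) and 4.05% among mid-UMI cells (quartiles 3.14 and 5.26). Without the limit, which removed more low-UMI than mid-UMI barcodes, the direction of the pooled share turned: 5.50% of summed UMIs in low-UMI barcodes and 4.82% in mid-UMI barcodes, while the median barcode kept its order, with 2.41% among low-UMI and 4.16% among mid-UMI barcodes. Within the limit, MT-CO2, a subunit of cytochrome c oxidase, stood at 5951 CPM in low-UMI cells and 11304 CPM in mid-UMI cells. Of the 13 mitochondrially encoded genes, 9 in kept cells were lower by at least 1.5 times and none was higher. Nuclear-encoded subunits of the respiratory chain did not share this: of 33 measured, none passed 1.5 times in either direction and their median log2 ratio was 0.20, beside −0.07 over all measured genes. Ribosomal protein genes gave 29.7% of summed UMIs in low-UMI cells and 27.5% in mid-UMI cells. MALAT1, a long RNA held in the nucleus, stood at 10497 CPM in low-UMI cells and 12652 CPM in mid-UMI cells, and NEAT1, the scaffold of nuclear paraspeckles, at 323 and 418 CPM. Of the 7 measured nuclear-retained RNAs, 1 (KCNQ1OT1) was lower by at least 1.5 times and none was higher.

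Of 7572 genes with at least 10 CPM in either set, 233 were at least 1.5 times higher in low-UMI cells with an interval that excluded 1 (3.08% of measured genes), and 604 were at least 1.5 times lower (7.98%). Differences of at least 2 times were found for 24 higher and 138 lower genes. The higher genes had shorter transcripts: the median canonical spliced length was 1918 bases for the 233 higher genes, 4019 bases for 594 lower genes and 3030 bases for 7551 measured genes, mitochondrially encoded genes left out. Whether transcript length had a part in the ratios was not tested.

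Among genes of at least 50 CPM in either set, genes of keratinised epithelium and skin proteases led the higher side. KRTAP3-1 and KRTAP2-3, keratin-associated proteins known from hair, stood at 136 and 232 CPM in low-UMI cells, against 45.3 and 78.0 CPM in mid-UMI cells. KRTAP2-3 has near-identical family members, so its count is uncertain. KLK8 and KLK7, secreted serine proteases of the kallikrein family, had ratios of 2.39 (2.23 to 2.57) and 2.02 (1.87 to 2.18). FXYD3, a regulator of the sodium pump, had a ratio of 2.56 (2.40 to 2.73). Together, 8 of the 9 measured members of this group were higher by at least 1.5 times, and the group's median log2 ratio was 1.18. This group was drawn up with earlier results of these data known. The antisense gene LIPE-AS1, at 81.7 CPM in low-UMI cells and 35.6 CPM in mid-UMI cells, is also uncertain, since strand-specific counting is not given in the sources used here. LRRC75A completed the 10 highest ratios among genes of at least 50 CPM together with ATF3, TP53I3 and ISG15, which belong to the groups below.

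Targets of p53 were higher as a group: 11 of 27 measured were higher by at least 1.5 times, none was lower, and the median log2 ratio was 0.47. TP53I3, an oxidoreductase induced by p53, stood at 223 CPM in low-UMI cells and 95.1 CPM in mid-UMI cells. TP53INP1 and BTG2, which restrain proliferation, had ratios of 2.16 (1.94 to 2.42) and 1.88 (1.73 to 2.03). Interferon-stimulated genes also stood higher, 8 of 19 measured and none lower, with ISG15, a ubiquitin-like modifier, at 1467 CPM in low-UMI cells and 640 CPM in mid-UMI cells. IFIT2 and OASL, antiviral effectors, had the largest ratios of that list, 3.51 (3.03 to 4.06) and 3.19 (2.79 to 3.65), at 24.4 and 27.7 CPM in low-UMI cells, against 6.95 and 8.68 CPM in mid-UMI cells. Both passed the minimum of 10 CPM through low-UMI cells alone, which favours high ratios and their place among the higher genes. ATF3, a stress-induced transcription factor, stood at 87.4 CPM in low-UMI cells and 43.2 CPM in mid-UMI cells, but it was the only 1 of 18 measured immediate early and heat shock genes that was higher by 1.5 times.

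Of 23 measured regulators of apoptosis, 2 were higher and 1 was lower by at least 1.5 times. Over all measured genes the shares were 3.08% and 7.98%, and counts this small do not set the list apart from them. BIK and BBC3, which promote cell death, had ratios of 1.86 (1.75 to 1.98) and 1.81 (1.67 to 1.96), and BIRC5, a survival factor that is also made for mitosis, had 0.480 (0.453 to 0.509). The list's median log2 ratio was 0.08. Secreted factors of senescent cells were higher for 5 of 12 measured and lower for none. Among them AREG, a ligand of the EGF receptor, stood at 1041 CPM in low-UMI cells and 567 CPM in mid-UMI cells.

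Epithelial genes were higher for 6 of 13 measured and lower for none. KRT8 and KRT19, keratins of simple epithelia, had ratios of 1.74 (1.72 to 1.77) and 1.78 (1.75 to 1.80), and CLDN4, a tight junction protein, had 1.73 (1.62 to 1.85). S100A6, a calcium-binding protein and 1 of the most abundant transcripts here, stood at 14424 CPM in low-UMI cells and 7446 CPM in mid-UMI cells. It was the only higher gene of 28 measured cytoskeleton and adhesion genes, 2 of which were lower: VCL, which links actin to adhesions, at 0.603, and TPM3, a tropomyosin, at 0.625. CST3 was the only higher member of 10 measured cystatins and cathepsins, and CTSV, a lysosomal cathepsin, was the only lower one, at 0.521. CTSV, at 6.93 CPM in low-UMI cells, passed the minimum of 10 CPM through mid-UMI cells alone, which favours a low ratio. CST6, another secreted cystatin, had a ratio of 1.19 (1.16 to 1.23), CTSD, a lysosomal protease, 1.28 (1.17 to 1.39), neither past 1.5 times.

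Most listed genes of the cell cycle were lower. Of 36 measured G2 and M phase genes, 32 were lower by at least 1.5 times and none was higher, with a median log2 ratio of −1.04. Of 26 S phase genes, 21 were lower and none higher, with a median of −0.78. MKI67, a protein of dividing nuclei, stood at 85.7 CPM in low-UMI cells and 202 CPM in mid-UMI cells, a ratio of 0.424 (0.399 to 0.451). GTSE1, a microtubule-associated protein of G2 phase, was lowest among genes of 50 CPM, with 0.332 (0.290 to 0.379), and KIF11, the kinesin that separates spindle poles, also had 0.332 (0.269 to 0.406) at 7.77 CPM in low-UMI cells and 23.4 CPM in mid-UMI cells. KIF11 passed the minimum of 10 CPM through mid-UMI cells alone. ATAD2, NCAPG, CLSPN, TMPO, MCM10, RMRP, CHAF1A and HIST1H1E made up the rest of the 10 lowest, with ratios from 0.371 to 0.427. Proteins of the nucleus were lower too: 11 of 28 measured RNA processing and nuclear protein genes, none higher. LMNB1, a nuclear lamina protein lost in senescent cells, stood at 17.6 CPM in low-UMI cells and 43.4 CPM in mid-UMI cells, and HMGB1, a chromatin protein, at 993 and 1874 CPM. HSP90B1, the chaperone of the endoplasmic reticulum, had a ratio of 0.571 (0.556 to 0.586).

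The study had assembled gene panels for maintenance and for budding of RTP cells, which are not independent of its samples. Only part of each panel was used here, 5 and 27 genes, so the counts do not describe the whole panels. Of the 4 measured maintenance genes, CST3 and KRT19 were higher by at least 1.5 times, SELENOM had a ratio of 1.34 and RPS12 a ratio of 1.12. Of the budding genes used, 26 were measured, of which 4 were higher by at least 1.5 times and none was lower: ASS1, an enzyme of arginine synthesis, at 1.88 (1.76 to 2.01), ISYNA1, of inositol synthesis, at 1.75, IGFBP6, a binding protein of insulin-like growth factors, at 1.74 and NINJ1, a membrane protein of cell rupture, at 1.60. The median log2 ratio of these genes was 0.28. Of 22 ESCRT genes, which act in membrane budding and abscission, 3 were higher (CHMP3, CHMP1B and VPS28, from 1.51 to 1.66) and none lower. None of 22 proteasome genes, 19 translation factors, 19 lysosomal genes and 16 ferritin and antioxidant genes passed 1.5 times in either direction. Of the remaining lists, glycolysis had 1 higher gene of 14 (SLC2A1), ATF4 and amino acid response genes 1 higher and 2 lower of 13, metallothioneins 1 lower of 4 (MT1F), and secretory pathway genes 1 higher (SSR4) and 1 lower (HSP90B1) of 27. MT1F, at 6.70 CPM in low-UMI cells, likewise passed the minimum of 10 CPM through mid-UMI cells alone. Ribosomal protein genes had 1 higher of 81, RPS27L, which is itself a p53 target.

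**Figure D3:**
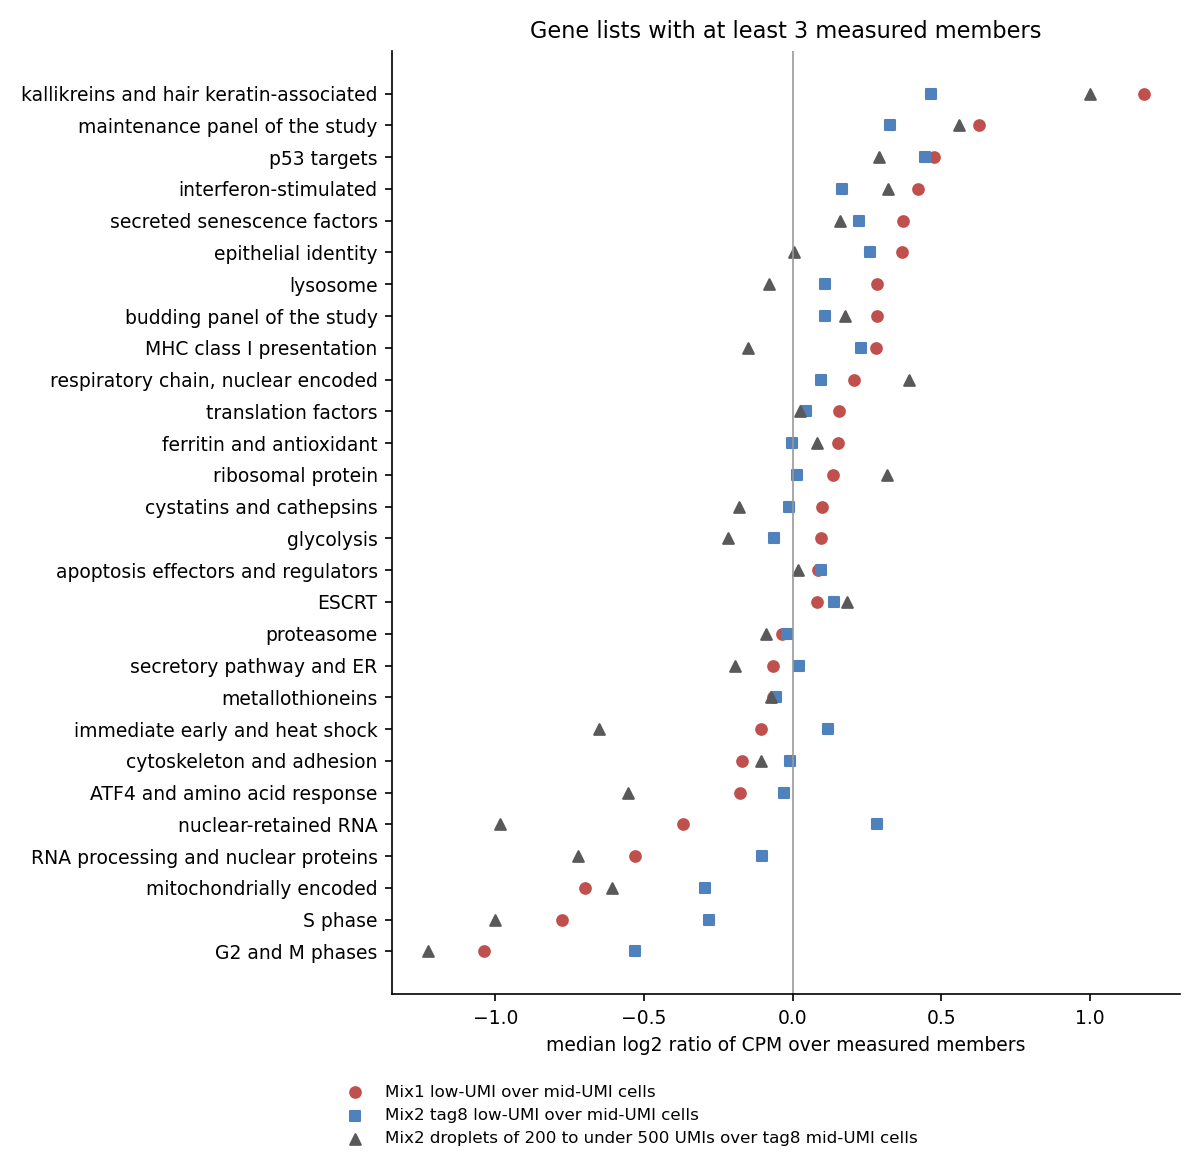
Median log2 ratio of CPM over the measured members of each gene list with at least 3 of them (horizontal axis): red circles are Mix1 low-UMI over mid-UMI cells, blue squares the same ratio in tag8 cells of Mix2, grey triangles Mix2 droplets of 200 to under 500 UMIs over tag8 mid-UMI cells. The squares and triangles share their denominator; in Mix1 the lists run from −1.04 for G2 and M phases to 1.18 for kallikreins and hair keratin-associated genes.

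Low-UMI cells were not alike in mitochondrial share. Of the 5715 low-UMI barcodes before the mitochondrial limit, 1260 had less than 1%, 780 had 1 to under 2%, 1799 had 2 to under 3%, 777 had 3 to under 5%, 347 had 5 to under 10%, and 752 (13.2%) had 10% or more and were left out. Among mid-UMI barcodes the limit removed 337 of 6088 (5.54%). Low-UMI cells with less than 1% were the farthest from mid-UMI cells as a whole. In them CDKN1A stood at 1073 CPM, ISG15 at 1838 CPM and S100A6 at 18441 CPM, and MKI67 and LMNB1 at 31.0 and 6.71 CPM. Most of this was shared by the 193 mid-UMI cells with less than 1%. Those had 1199 CPM of CDKN1A, 15546 CPM of S100A6, and 27.8 and 4.25 CPM of MKI67 and LMNB1, but 680 CPM of ISG15. In those with 5 to under 10%, CST3 stood at 553 CPM and MKI67 at 172 CPM, near the 544 and 146 CPM of mid-UMI cells with the same share. At an equal mitochondrial share, the CST3 ratio of low-UMI to mid-UMI cells was thus 1.43 under 2% (1.371 to 1.498), 2.37 from 2 to under 5% (2.30 to 2.44) and 1.02 from 5 to under 10% (0.939 to 1.099). The CDKN1A ratio was 1.06 (1.016 to 1.103), 2.49 (2.40 to 2.57) and 0.831 (0.768 to 0.898) in the same classes.

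The low-UMI barcodes removed by the limit had higher MALAT1 and NEAT1 than the kept ones. In those with 20% or more mitochondrial UMIs (493), MALAT1 stood at 60019 CPM, NEAT1 at 1992 CPM and CST3 at 491 CPM, and ribosomal protein genes gave a median of 14.8% of UMIs. In those with 10 to under 20% (259), MALAT1 stood at 38209 CPM, ribosomal protein genes at 21.8% and CST3 at 665 CPM. MALAT1 was also high in the 337 mid-UMI barcodes that the limit removed, at 31071 CPM. Mid-UMI cells with 5 to under 10% had 16766 CPM. The limit itself keeps the kept cells below 10%. Among kept cells with less than 2% mitochondrial UMIs, MALAT1 stood at 11511 CPM in low-UMI cells and 8277 CPM in mid-UMI cells, a ratio of 1.39 (1.37 to 1.41), above 1 although the ratio over all kept cells was 0.830.

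Spread between cells was then measured. After thinning to 1000 UMIs, the variance of a count between cells was divided by the variance that counting alone gives at that mean, so that 1 means no spread beyond counting. The summed G2 and M phase genes had a ratio of 1.69 in all low-UMI cells and 2.96 in mid-UMI cells, and the summed p53 targets 1.36 and 2.58. In the peak of 2000 to under 3000 UMIs, these ratios were 1.19 and 1.13, but MALAT1 had 14.005, mitochondrially encoded genes 7.08 and ribosomal protein genes 2.67, and 11 of 285 genes exceeded 1.5. Within that peak, 1369 cells (58.4%) had a mitochondrial share of 2 to under 3%. For them, the ratio was 1.01 for G2 and M phase genes, 0.991 for p53 targets, 0.994 for interferon-stimulated genes, 1.14 for ribosomal protein genes and 1.19 for MALAT1. Of 284 genes with a mean of at least 0.5 UMIs, the median ratio was 1.003 and none exceeded 1.5. The 825 mid-UMI cells with the same mitochondrial share and the same thinning had 2.57 for G2 and M phase genes, 2.42 for p53 targets, 10.6 for ribosomal protein genes and 7.09 for MALAT1, and 22 of 297 genes exceeded 1.5. The peak and this range of mitochondrial share were chosen after the values had been seen. The peak cells had 978 CPM of CST3, 163 CPM of SNCG, 832 CPM of CDKN1A and 83.9 CPM of MKI67 within that range, and the low-UMI cells outside the peak had 836, 173, 797 and 92.6 CPM.

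**Figure D4:**
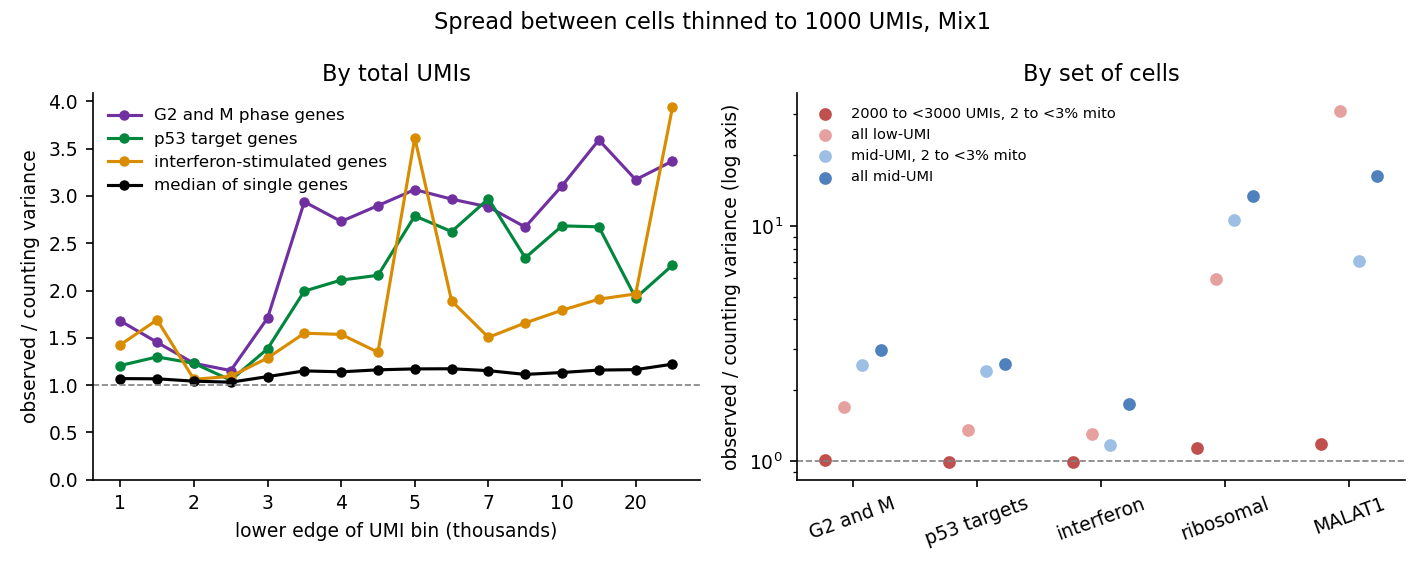
Observed variance between Mix1 cells divided by counting variance, after thinning each cell to 1000 UMIs, left, for 3 summed gene lists and the median single gene by bin of total UMIs (lower edge in units of 1000 UMIs, linear axis), right, for 4 summed lists and MALAT1 by set of cells (log axis), with the dashed line at 1. The 1369 cells of 2000 to under 3000 UMIs and 2 to under 3% mitochondrial UMIs lie between 0.991 and 1.19, while mid-UMI cells reach 2.96 for G2 and M phase genes and 16.2 for MALAT1.

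Outside the peak the spread was wider. Low-UMI cells away from it had ratios of 2.15 for G2 and M phase genes, 1.57 for p53 targets and 45.0 for MALAT1, and 29 of 279 genes exceeded 1.5. Low-UMI cells with 5 to under 10% mitochondrial UMIs had 3.15 for G2 and M phase genes and 3.41 for p53 targets, and 53 of 257 genes exceeded 1.5. In bins of 3500 UMIs and above, the ratio for G2 and M phase genes lay between 2.67 and 3.59.

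The same limits were then applied to Mix2, a library that the rule had not used. Cells were assigned to a population where 1 tag made up at least 80% of their tag counts. Low-UMI cells were 2194 of 9605 tag8 cells (22.8%), 96 of 633 tag7 cells (15.2%) and 117 of 817 tag6 cells (14.3%). The sharp peak of Mix1 between 2000 and 3000 UMIs was not seen in tag8 cells, which had a trough there. Tag8 cells numbered 425 at 500 to under 750 UMIs, 42 at 2250 to under 2500 and 322 at 6500 to under 6750. Mix1 had 632 cells at 2250 to under 2500 UMIs. Why the libraries differed in this was not tested. In tag8 cells CST3 stood at 644 CPM in low-UMI cells and 451 CPM in mid-UMI cells, SNCG at 136 and 123 CPM, and CDKN1A at 622 and 492 CPM. In tag7 cells CST3 stood at 273 and 259 CPM, and in tag6 cells at 249 and 231 CPM, again with low-UMI cells first. MKI67 was lower in low-UMI cells of every population: 153 against 268 CPM in tag8 cells, 239 against 407 CPM in tag7 cells and 252 against 393 CPM in tag6 cells. The median mitochondrial share of tag8 cells was 2.74% in low-UMI cells and 6.39% in mid-UMI cells. In tag7 cells it was 7.72% in low-UMI cells and 6.87% in mid-UMI cells, and in tag6 cells 6.22% and 5.79%. Over these sets the share was lower in low-UMI cells of tag8 alone, but the sets differed in depth. Low-UMI cells had a median of 1686.5 UMIs in tag8, 3873 in tag7 and 4255 in tag6. In tag8 cells of 3000 to under 4000 UMIs the median share was 6.36%. In those of 4000 to under 5000 UMIs it was 6.82%, so neither bin lay far from tag8 mid-UMI cells. The difference between populations was not tested.

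In tag7 cells, 164 of 7994 measured genes were at least 1.5 times higher in low-UMI than in mid-UMI cells (2.05%) and 158 were lower (1.98%), and in tag6 cells 117 of 7936 were higher (1.47%) and 170 lower (2.14%), from few cells. In tag8 cells, 137 of 7665 measured genes were at least 1.5 times higher in low-UMI than in mid-UMI cells (1.79%) and 72 were at least 1.5 times lower (0.939%). Of the higher genes 43 were shared with Mix1, which is 18.5% of the Mix1 list and 31.4% of the tag8 list. Of the lower genes 53 were shared, which is 8.77% of the Mix1 list and 73.6% of the tag8 list. G2 and M phase genes were lower for 14 of 36 in tag8 low-UMI cells, with a median log2 ratio of −0.53, and p53 targets were higher for 6 of 28, with a median of 0.45. Other lists that stood out in Mix1 had no call in tag8 cells: 0 of 9 kallikreins and hair keratin-associated genes and 0 of 12 epithelial genes were higher, and 0 of 26 S phase genes, 0 of 28 RNA processing and nuclear protein genes and 0 of 13 mitochondrially encoded genes were lower. The smallest tag8 cells did differ in these lists. At 1000 to under 1500 UMIs, kallikreins and hair keratin-associated genes summed to 1354 CPM, against 543 CPM in tag8 mid-UMI cells. Epithelial genes summed to 10931 and 5657 CPM in the same order, and S phase genes to 1105 and 2315 CPM. RNA processing and nuclear protein genes summed to 11373 and 15565 CPM, and mitochondrially encoded genes to 17356 and 62218 CPM. Whether the libraries differed in these lists was not tested. The tag itself followed cell content: tag8 had a median of 592.5 counts in low-UMI cells (quartiles 303 and 1021.5) and 2185.5 counts in mid-UMI cells (quartiles 1468 and 4264.5). By bin, tag8 cells of 1000 to under 1500 UMIs had 1341 CPM of CST3, the highest of the tag8 bins, with a median mitochondrial share of 1.12%, and cells of 5000 to under 6000 UMIs had 371 CPM and 6.58%. In tag8 low-UMI cells, after 656 cells below 1000 UMIs were left out, the variance ratio was 3.26 for G2 and M phase genes, and 53 of 289 genes exceeded 1.5. Tag8 mid-UMI cells had 3.17, and 34 of 287 genes exceeded 1.5. By bin the ratio was 2.15 at 1000 to under 1500 UMIs, 1.91 at 1500 to under 2000 and 3.01 at 2000 to under 3000. In these bins 17 of 296, 24 of 295 and 79 of 278 genes exceeded 1.5.

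Mix2 had also been deposited with its unfiltered barcodes, which gave the RNA of droplets that were not called as cells. Barcodes of 1 to 100 gene UMIs (1467872 of them, 2842976 UMIs) had a median of 1 UMI, with 637 CPM of CST3, 88.6 CPM of SNCG and 402 CPM of CDKN1A. They also held 14565 CPM of erythroid and 1038 CPM of immune markers, against 1.64 and 6.12 CPM in tag8 mid-UMI cells, so their levels are not a background made of these cells alone. A denser set lay at 200 to under 500 UMIs, with 49939 barcodes, 19210968 UMIs and a median of 391 UMIs. It held 29.8 CPM of erythroid markers and 7.86 CPM of immune markers. Only 1331 barcodes lay between these sets. A further 8785 unfiltered barcodes had 500 to under 1000 UMIs, so the upper limit of 500 UMIs marked no empty range. The range of 200 to under 500 UMIs was chosen after the counts had been seen. These droplets had a median of 116 tag8 counts (quartiles 92 and 160). Their RNA was not that of mid-UMI cells. CST3 stood at 857 CPM in the droplets and 451 CPM in tag8 mid-UMI cells, a ratio of 1.90 (1.86 to 1.94), SNCG at 156 and 123 CPM, CDKN1A at 723 and 492 CPM, GDF15 at 1069 and 617 CPM, and MKI67 at 57.8 and 268 CPM. The median mitochondrial share was 3.02% in the droplets, and ribosomal protein genes gave 31.1% of UMIs in the median droplet. The smallest called tag8 cells, 656 with 500 to under 1000 UMIs, had 1060 CPM of CST3 and 65.3 CPM of MKI67. Their MALAT1 stood at 14191 CPM, against 3875 CPM in the droplets.

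Set beside the Mix1 low-UMI cells, which come from another library, the values of these droplets were close for many genes. CST3 stood at 893 CPM in low-UMI cells and 857 CPM in the droplets, SNCG at 171 and 156 CPM, CDKN1A at 824 and 723 CPM, GDF15 at 1229 and 1069 CPM, S100A6 at 14424 and 15048 CPM and ISG15 at 1467 and 1714 CPM. Others were not close. MALAT1 and NEAT1 stood at 10497 and 323 CPM in low-UMI cells, against 3875 and 150 CPM in the droplets, KCNQ1OT1 had a ratio of 4.65 and LRRC75A 2.89, while KLK8 had 0.457 and LIPE-AS1 0.653. RPL17 and NDUFB1 had 0.374 and 0.499. Mitochondrially encoded genes summed to 24873 CPM in low-UMI cells and 39359 CPM in the droplets, with MT-ND3 at a ratio of 0.446. Of 140 measured genes under the naming rule, 15 were at least 1.5 times higher in low-UMI cells and 9 at least 1.5 times lower. Of 7233 genes measured in either, 712 were at least 1.5 times higher in low-UMI cells (9.84%) and 135 at least 1.5 times lower (1.87%). Among G2 and M phase genes 1 was higher and 3 were lower of 34, and among p53 targets 2 were higher of 27 and none was lower, whereas 4 of 7 nuclear-retained RNAs were higher.

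Against tag8 mid-UMI cells, 156 of 7406 measured genes were at least 1.5 times higher in the droplets (2.11%) and 1882 at least 1.5 times lower (25.4%). Of the genes higher in Mix1 low-UMI cells, 87 were higher in the droplets as well, 37.3% of the Mix1 list and 55.8% of the droplet list. Of the genes lower in Mix1 low-UMI cells, 527 were lower in the droplets as well, 87.3% of the Mix1 list and 28.0% of the droplet list. Over 2759 genes of at least 50 CPM in Mix1, the log2 ratio of low-UMI to mid-UMI cells in Mix1 and that of droplets to tag8 mid-UMI cells in Mix2 had a Pearson r of 0.83, which is across genes, not samples, and the genes share cell line, chemistry and base composition. The log2 ratio of Mix1 set beside that of tag8 low-UMI to mid-UMI cells gave 0.66 over the same genes.

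**Figure D5:**
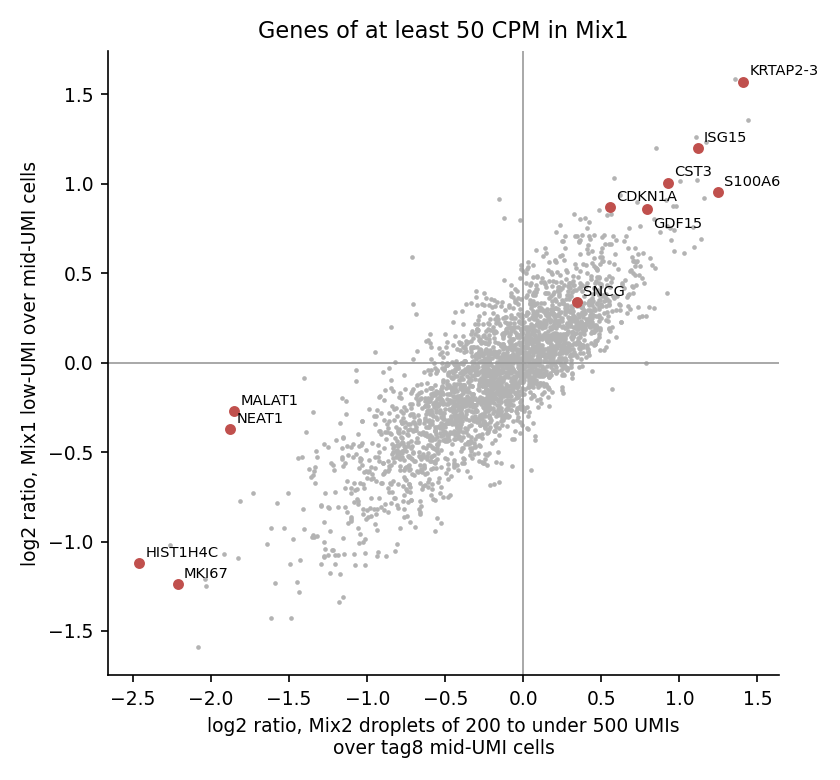
Each point is 1 of 2759 genes of at least 50 CPM in Mix1: log2 ratio of low-UMI to mid-UMI cells in Mix1 (vertical axis) against log2 ratio of Mix2 droplets of 200 to under 500 UMIs to tag8 mid-UMI cells (horizontal axis), with named genes in red. CST3, at 2.01 times in Mix1 and 1.90 times in the droplets, lies high on both axes and MKI67 low on both, while MALAT1 and NEAT1 lie far to the left but only slightly below 0 on the vertical axis.

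Between-cell spread was compared with these droplets at 200 UMIs, the depth they allow. Summed G2 and M phase genes had a variance ratio of 1.04 in the 1369 Mix1 peak cells of 2 to under 3% mitochondrial UMIs and 1.02 in the droplets, against 1.14 in all Mix1 low-UMI cells and 1.43 in Mix1 mid-UMI cells. Summed ribosomal protein genes had 0.968 in those peak cells, 1.20 in the droplets, 2.03 in all low-UMI cells and 3.43 in mid-UMI cells. The mitochondrial genes spread more in the droplets, with 5.97, than in mid-UMI cells, with 2.74, and the same peak cells, chosen within 1 percentage point of mitochondrial share, had 0.995. Droplets without cells of Mix1 itself were not analysed here, so whether free RNA made up the content of the Mix1 low-UMI barcodes was not tested.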

How the data were processed

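The authors prepared Mix1 and Mix2 with the droplet-based 3′ chemistry of 10x Genomics and deposited UMI counts per gene and barcode, made with Cell Ranger on GRCh38. According to the matrix headers, Mix1 came from Cell Ranger 3.1.0, while 3.0.1 made Mix2. The submitters' processing notes name Seurat 2.3. The deposited counts are not normalized. Mix1 was used as filtered barcodes, Mix2 as filtered and unfiltered barcodes with its tag counts. The limits of 200 genes and 10% mitochondrial UMIs followed the study.

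Counts were summed over the cells of each set and divided by the set's total. Ratios of CPM have exact conditional binomial intervals, and shares have Clopper-Pearson intervals, at 95%. A gene counted as measured at 10 CPM in either set, and as higher or lower past a ratio of 1.5 with an interval that excluded 1. The ratio code was tested on simulated data. For spread and shares at equal depth, each cell was thinned to 1000 UMIs (200 beside droplets). A Mix2 cell was assigned to a tag that made up at least 80% of its tag counts. Named genes were CST3, SNCG, CDKN1A, MKI67, GDF15, MALAT1 and NEAT1, the 10 highest and 10 lowest ratios among genes of 50 CPM in either set (mitochondrially encoded and ribosomal protein genes left out), in every list at most 4 members, those farthest from 0 on the log2 scale, and the study's panels. Markers of epithelial and other cell types were named beyond this rule, as a check of identity. Some genes that the rule named are not reported here. Members and lists were chosen with earlier results of these data known. No doublet caller was run, and clusters of the low-UMI cells, which had been planned, were not made. With 1 library per condition no p-value was computed. Gene positions and transcript lengths came from the GENCODE annotation of GRCh38. Python 3.11.15, numpy 2.4.6, scipy 1.17.1, pandas 2.3.3 and matplotlib 3.10.9 were used, and edgeR 4.0.16 in R 4.3.3 gave the TMM factors of 1 alternative.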

Additional observations from a re-analysis of the deposited data

Results flagged for a closer look

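Some genes lay on opposite sides of equal level in different populations, and in each case the difference was not tested, since every population was 1 library or 1 tag of a library. The ratio of low-UMI to mid-UMI cells for CDKN1A was 1.83 in Mix1 and 0.742 in the repopulated tag7 cells of Mix2. The tag7 value rests on only 96 low-UMI cells, with 0.646 CDKN1A UMIs per cell. For MALAT1 the ratio was 0.830 in Mix1 and 1.22 in the irradiated tag8 cells of Mix2. For NEAT1 the ratio was 0.772 in Mix1 and 1.32 in the tag8 cells. Bins of tag8 low-UMI cells were unlike. MALAT1 ran from 13547 CPM at 1500 to under 2000 UMIs to 28798 CPM at 2000 to under 3000, against 13981 CPM in mid-UMI cells. NEAT1 ran from 361 CPM at 500 to under 1000 UMIs to 1433 CPM at 2000 to under 3000, against 550 CPM. The MALAT1 variance ratio in tag8 low-UMI cells was 104.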

How the results depend on the processing

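With no mitochondrial limit the pooled mitochondrial share changed direction, to 5.50% in low-UMI and 4.82% in mid-UMI barcodes, against 2.49% and 4.31% within it. No other result put through the alternatives turned round. Those were the CST3, SNCG and CDKN1A ratios, the counts of higher and lower genes and the CST3 level of Mix2 droplets. Levels of other genes were not run. The low-UMI barcodes that the limit removed had much higher MALAT1 and NEAT1, so the order of these 2 without the limit was not established. The CST3 ratio of 2.01 became 1.86 with no mitochondrial limit, 2.30 under 5% mitochondrial UMIs, 2.16 with low-UMI cells under 3000 UMIs, 1.92 against cells of 5000 to under 8000 UMIs, 1.53 against cells of at least 15000 UMIs and 2.09 with equal weight per cell. The SNCG ratio of 1.26 became 1.19 with no mitochondrial limit, 1.43 under 5%, 1.15 against cells of 5000 to under 8000 UMIs and 1.01 against those of at least 15000. The CDKN1A ratio of 1.83 became 1.66 with no limit, 2.33 under 5%, 1.92 with low-UMI cells under 3000 UMIs, 1.76 and 1.02 against the smaller and larger cells, 1.93 with equal weight and 1.89 after thinning to 1000 UMIs. The mitochondrial share of low-UMI cells otherwise became 2.03% under 5%, 2.61% at 1000 genes or more, 2.29% under 3000 UMIs, 2.34% with equal weight and 2.34% after thinning. The 233 higher genes became 421 under 5%, 355 under 3000 UMIs, 74 against cells of at least 15000 UMIs, 419 after thinning and 817 without the CPM minimum. The 604 lower genes became 151 against cells of at least 15000 UMIs and 1150 without the CPM minimum. Alternatives chosen after seeing the data were leaving out the cells of 2000 to under 3000 UMIs, which gave 1.88 for CST3, 1.77 for CDKN1A and 2.52% for the mitochondrial share, and taking Mix2 droplets of 200 to under 500 UMIs, which gave 857 CPM of CST3 against 637 CPM in those of at most 100 UMIs. Causes of these shifts were not tested. No paired analysis was possible because each library was 1 sample with no replicate. Depth limits values per cell, since the median low-UMI cell held 2551 UMIs.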
